A study of Homo sapiens with 6 samples.

Results

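Antigen presentation was examined through 40 genes for the chains of MHC class I and class II, the proteins that cut, carry and load peptides, the regulators CIITA, NLRC5 and RFX, and the CD1 family. The genes were listed by their known roles, not by a threshold on these values, although earlier results of these data were known, and their probes were found through the RefSeq accession that the array files give for each probe. In all, 61 of the 34127 probes on the array measured the 40 genes, out of 19740 genes that could be named. Of these 61 probes, 57 were detected on at least 3 of the 6 arrays and were tested, and they measured 37 of the 40 genes. The remaining 3 genes, CD1A, CD1B and CD1C, were not detected on any array.

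The cells were SU-DHL-2, an established line of diffuse large B-cell lymphoma (DLBCL), in which the study asked how IL-17A acts on lymphoma growth. One group of 3 samples received IL-17A at 200 pg/ml for 72 h, and the 3 control samples were kept for 72 h without IL-17A. The labels call this treatment in vivo, while their growth protocol and the methods describe cells in culture, and it is taken here as a culture. Both groups were of the same line and in the same medium with serum, and the labels name no genetic change in either. RNA of each sample was labeled with Cy3 and hybridized to 1 array, 1 array per sample. The labels do not say that the samples came from separate cultures, so the p-values measure the spread between these samples, which may be technical.

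Values are log2 signals after quantile normalization, and a log2 fold change is the mean of the 3 IL-17A arrays minus the mean of the 3 control arrays. A gene is given at its brightest tested probe unless stated otherwise, and a gene was called when its adjusted p from limma, corrected over all 23945 tested probes by the Benjamini-Hochberg method, was under 0.05. Levels of different genes are not compared, because probes differ in how brightly they bind. Between 23570 and 24077 probes were detected per array, and no spot was saturated. The B-cell label of the line was checked with 10 marker genes, among them CD79A and CD79B, and all 10 were detected on all 6 arrays. Of 7 T-cell and NK-cell markers with a probe, 5 were detected on all 6 arrays and CD5 and NCAM1 on none. The summed log2 signal of the 10 B-cell markers was 16.15 to 16.19 with IL-17A and 16.05 to 16.12 in the controls, and that of the 5 T-cell and NK-cell markers 7.73 to 7.81 and 7.64 to 7.78. Of these 5 markers, 3 had log2 fold changes above 0 and 2 below. They ran from CD3E, which was called lower at a dim signal of 2.78 against 3.24, to CD2, at 3.16 against 2.65 (adjusted p = 0.054 from limma). In RNA from whole cultures, fewer cells of a kind and less RNA per cell cannot be told apart. Of 8 markers of monocytes, macrophages and dendritic cells, CD14 was detected on all 6 arrays and 4 were detected on none. CD68 and CLEC10A were each detected on 2 controls and ITGAX on 1 control, none of them on an IL-17A array. Their mean log2 signals were dim, at 2.03 with IL-17A against 2.39 in the controls for CD68. Those of CLEC10A were 2.06 against 2.55 and those of ITGAX 2.01 against 1.71, and the difference was not tested. The 3 controls shared a scan with IL-17A replicate 1, while the other IL-17A arrays were scanned apart, so that scan and treatment overlap in part.

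MHC class I molecules carry peptides from the inside of the cell to its surface, where cytotoxic T cells read them. The peptides are cut by the proteasome, which in lymphoid cells holds the immunoproteasome subunits, pumped into the endoplasmic reticulum by the TAP transporter, trimmed there, and loaded onto a heavy chain paired with B2M. MHC class II molecules, which B cells carry as professional antigen-presenting cells, take up peptides from engulfed proteins. Their chains travel with the invariant chain CD74 to the endosome, where thiol reductase and cathepsins prepare the peptides and HLA-DM exchanges them onto the groove. Transcription of class II genes depends on the coactivator CIITA, and that of class I genes on its relative NLRC5. Both act on promoters through the RFX complex and NF-Y, which bind neighbouring elements known as the X box and the Y box.

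The promoters below were searched for these elements, because CIITA, NLRC5 and the RFX subunits are among the genes examined. Each is the stretch of 150 bases up to the gene's start in RefSeq (GRCh38.p14), written from 5′ to 3′ on the strand of the gene, with matches to the Y box letters CTGATTGG and to the X box letters AACNGATG, on either strand, in capitals. HLA-B and HLA-C, 2 class I heavy chains, and B2M hold the Y box letters only. HLA-DRB1 holds both. HLA-DMB holds the X box letters, and IFI30, which is the called gene, holds neither in this stretch.
B2M, chr15:44711367-44711516, + strand: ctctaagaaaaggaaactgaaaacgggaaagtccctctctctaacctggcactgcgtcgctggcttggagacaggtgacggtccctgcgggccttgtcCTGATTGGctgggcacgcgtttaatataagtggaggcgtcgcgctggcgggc
HLA-B, chr6:31357180-31357329, - strand: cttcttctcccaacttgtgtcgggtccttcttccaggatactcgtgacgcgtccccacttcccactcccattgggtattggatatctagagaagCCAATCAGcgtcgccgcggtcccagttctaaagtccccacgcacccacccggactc
HLA-C, chr6:31272093-31272242, - strand: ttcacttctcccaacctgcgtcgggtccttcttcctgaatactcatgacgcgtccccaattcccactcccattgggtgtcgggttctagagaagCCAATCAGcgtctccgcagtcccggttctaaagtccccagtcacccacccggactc
HLA-DRB1, chr6:32589849-32589998, - strand: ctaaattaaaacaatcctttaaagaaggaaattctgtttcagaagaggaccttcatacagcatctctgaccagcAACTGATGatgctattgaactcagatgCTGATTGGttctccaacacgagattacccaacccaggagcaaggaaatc
HLA-DMB, chr6:32941029-32941178, - strand: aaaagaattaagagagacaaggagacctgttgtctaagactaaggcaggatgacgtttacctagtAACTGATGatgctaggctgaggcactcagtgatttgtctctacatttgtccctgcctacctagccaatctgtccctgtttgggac
IFI30, chr19:18173663-18173812, + strand: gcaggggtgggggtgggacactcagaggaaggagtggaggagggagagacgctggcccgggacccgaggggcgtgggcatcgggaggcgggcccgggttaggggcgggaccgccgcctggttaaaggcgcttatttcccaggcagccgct

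A promoter sequence was found for 33 of the 40 genes (49 promoters, since some genes have several starts). In the 250 bases before the start, the Y box letters CTGATTGG were found in 10 of the 49 promoters, those of HLA-B, HLA-C, HLA-F, HLA-G, B2M, HLA-DRB1, HLA-DRB5, HLA-DQB1, HLA-DMA and RFX5, and in 3.81% of all 35116 promoters. The X box letters AACNGATG were found in 3 of the 49, those of HLA-DRB1, HLA-DRB5 and HLA-DMB, and in 1.65% of all promoters. The interferon-stimulated response element (GAAA, any 2 bases, GAAA) was found in 8 of the 49, among them those of B2M, TAP1, TAP2, TAPBP and PSMB10, and in 3.02% of all promoters. The kappaB consensus, at which NF-kB binds, was found in 10 of the 49, among them those of HLA-B, HLA-C, HLA-G, B2M, TAP1, HLA-DPA1 and CD74, and in 9.96% of all promoters. A match of letters is a description of the sequence, not a site shown to be used.

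Across the genes with a tested probe, the difference between the groups was small. Of the 37 genes, 1 was called, IFI30, which fell with IL-17A, and no gene was called higher. The background is 7.85% of the 14747 named genes with a tested probe called by the same rule, 4.37% higher and 3.48% lower. At an unadjusted p under 0.05 from limma, 7 of the 37 genes differed, 3 higher (HLA-DPA1, HLA-DPB1 and B2M) and 4 lower (IFI30, HLA-C, CIITA and RFXANK), against a background of 31.8%. None of the 37 reached a 1.5-fold change with an unadjusted p under 0.05, which 1.92% of all named genes did. Of the 37 genes, 36 had a mean log2 signal over 6, and among the 10073 named genes above that signal only 31 passed. A 1.5-fold change with an unadjusted p is the filter of the array methods, and the statistics section of the methods also names a false discovery rate. The 3 IL-17A arrays did not overlap with the 3 controls for 13 of the 37 genes, against 40.7% of all named genes.

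The log2 fold changes of the 37 genes ran from -0.31 (CD1D) to 0.21 (HLA-DPA1), with a median of -0.02. Their median size was 0.07, against 0.11 over all named genes and 0.09 over those with a mean log2 signal over 6. The 95% interval of the difference lay inside 1.5-fold in both directions for 36 of the 37 genes, CD1D being the exception, and for 84.2% of all named genes. These 36 genes all had a mean log2 signal over 6, and among the 10073 named genes above that signal the share was 97.0%. The plot of log2 fold changes shows how close the intervals are to 0 in each group of genes.

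**Figure D1:**
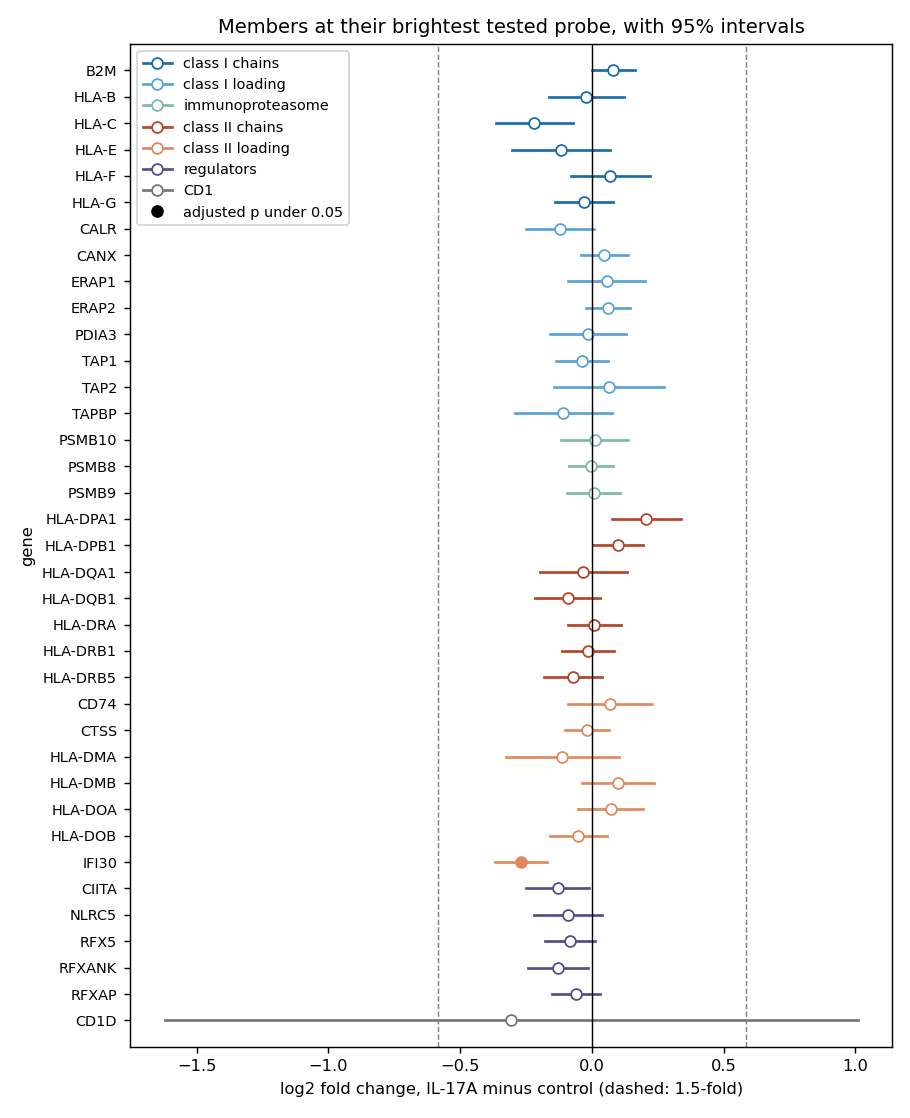
Log2 fold change (IL-17A minus control, 3 arrays each) of 37 genes, each at its brightest tested probe, with lines for the 95% interval from limma and dashed lines at a 1.5-fold change. The filled point is IFI30, the gene called at an adjusted p under 0.05, and the interval of CD1D alone crosses the dashed lines.

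Among the class I chains, none of the 6 genes was called. HLA-C, a classical heavy chain, had log2 signals of 14.53, 14.49 and 14.54 with IL-17A and of 14.82, 14.78 and 14.63 in the controls. Every IL-17A array was lower than every control array. The log2 fold change was -0.22 (limma, adjusted p = 0.0741, standard error 0.06), and the 95% interval ran from -0.36 to -0.07. With the arrays scaled to their 75th percentiles HLA-C had a log2 fold change of -0.35, called at an adjusted p of 0.0459 from limma. The same scaling moved HLA-B to -0.18 and HLA-G to -0.14, neither called. Within the scan that held both groups HLA-C was at -0.21. B2M, the light chain that all class I molecules share, had 13.32, 13.31 and 13.31 with IL-17A and 13.24, 13.23 and 13.22 in the controls. These groups did not overlap either, with SDs of 0.003 and 0.010 (n = 3 each). The log2 fold change of B2M was 0.08 (limma, adjusted p = 0.159, standard error 0.03), and 0.03 after scaling to the 75th percentile.

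B2M was printed on 10 spots of each array, and the SD between the spots of 1 array was 0.03 to 0.07 on the log2 scale, so that the mean over the spots is more precise than a value from a single spot. The other class I heavy chains overlapped between the groups at their brightest probes. HLA-B, also a classical heavy chain, had 15.55 ± 0.09 with IL-17A and 15.57 ± 0.04 in the controls (mean ± SD, n = 3 each). HLA-E, which presents leader peptides of other class I chains to NK cells, had a log2 fold change of -0.12 with a 95% interval from -0.30 to 0.07. HLA-F and HLA-G, nonclassical chains, had log2 fold changes of 0.07 and -0.03. At the dimmer probe of HLA-F the groups did not overlap, at a log2 fold change of 0.21 (adjusted p = 0.113 from limma). The heavy-chain genes are near-identical over long stretches and differ between people, so that a probe may take up the transcript of another heavy chain, and which of them a signal belongs to is uncertain.

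The genes that cut and load class I peptides were close to the controls as well. Of 8 genes for loading and trimming, none was called and none had an unadjusted p under 0.05 at its brightest probe. The log2 fold changes at these probes ran from -0.12 to 0.07. Dimmer probes of TAPBP, CANX and PDIA3 had unadjusted p-values of 0.038, 0.046 and 0.014 from limma, and none of them was called. The remaining dimmer tested probes, of TAPBP and ERAP1, had unadjusted p-values of 0.38 and 0.65 from limma. TAP1 and TAP2, the subunits of the peptide transporter, had log2 fold changes of -0.04 and 0.07. TAPBP, or tapasin, which bridges the transporter and the empty class I molecule, had 10.21 ± 0.09 with IL-17A and 10.31 ± 0.10 in the controls (mean ± SD, n = 3 each). CALR, the chaperone calreticulin, had 13.96, 14.11 and 14.07 with IL-17A and 14.15, 14.15 and 14.20 in the controls. Its groups did not overlap, at a log2 fold change of -0.12 (95% interval -0.25 to 0.01, adjusted p = 0.184 from limma), and within the scan with both groups the log2 fold change was -0.21. CANX, the membrane-bound partner of calreticulin, and ERAP2, a trimming peptidase, were higher on every IL-17A array, by 0.05 and 0.06 on the log2 scale, and neither was called. ERAP1 had a log2 fold change of 0.06. PDIA3, a disulfide isomerase of the loading complex, had -0.02 at its brightest probe and -0.23 at its dimmer one, where the groups did not overlap (adjusted p = 0.0828 from limma).

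The immunoproteasome subunits showed the smallest median difference among these groups of genes. PSMB8 had 9.35 ± 0.01 (SD, n = 3) in both groups, with a log2 fold change of -0.002 and a 95% interval from -0.09 to 0.08. PSMB9 and PSMB10 had log2 fold changes of 0.006 and 0.01, with intervals within -0.12 and 0.14. PSMB5, PSMB6 and PSMB7, the subunits of the ordinary proteasome that these replace, had log2 fold changes of -0.10, -0.10 and 0.003, and were not called.

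Among the 7 class II chains, none was called, and 3 had log2 fold changes above 0 and 4 below. HLA-DPA1, the alpha chain of HLA-DP, had 13.62, 13.63 and 13.59 with IL-17A and 13.33, 13.40 and 13.49 in the controls. The lowest IL-17A array lay above the highest control, at a log2 fold change of 0.21 (standard error 0.05, 95% interval 0.08 to 0.34, adjusted p = 0.068 from limma). HLA-DPB1, its beta chain, had 11.16, 11.15 and 11.16 with IL-17A and 11.11, 11.04 and 11.03 in the controls. The groups did not overlap, at a log2 fold change of 0.10 (limma, adjusted p = 0.152, standard error 0.04). HLA-DRA, the alpha chain of HLA-DR, had 13.94, 13.99 and 14.01 with IL-17A and 14.01, 13.93 and 13.97 in the controls. These values overlapped, at a log2 fold change of 0.01 with a 95% interval from -0.09 to 0.11.

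HLA-DRB1, a beta chain of HLA-DR that was printed on 10 spots of each array, had 11.85 ± 0.04 with IL-17A and 11.87 ± 0.02 in the controls (mean ± SD, n = 3 each). The SD between its spots was 0.03 to 0.06 per array, and the 95% interval of the log2 fold change ran from -0.11 to 0.08. HLA-DRB5, another beta chain of HLA-DR, had a log2 fold change of -0.07. HLA-DQB1, the beta chain of HLA-DQ, had 10.00, 10.06 and 10.09 with IL-17A and 10.21, 10.09 and 10.13 in the controls, without overlap, at a log2 fold change of -0.09 (adjusted p = 0.258 from limma). HLA-DQA1, its alpha chain, had a log2 fold change of -0.03. Like the class I chains, the DR and DQ genes are near-identical to relatives and vary between people, and the probes may not keep them apart.

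In the class II loading pathway, IFI30 was the only 1 of 7 genes called. IFI30, also known as GILT, is the thiol reductase that opens disulfide bonds of engulfed proteins in the endosome. It had log2 signals of 12.42, 12.35 and 12.35 with IL-17A and of 12.66, 12.65 and 12.62 in the controls. The 3 IL-17A arrays all lay below the 3 controls, and IL-17A replicate 1, which shared the scan of the controls, was the closest to them. IFI30 fell by 0.27 on the log2 scale (limma, adjusted p = 0.0327, standard error 0.04), which is 1.21-fold, and the 95% interval of the log2 fold change ran from -0.37 to -0.17. Within the scan that held both groups the difference was -0.22 on the log2 scale (unadjusted p = 0.0223 and adjusted p = 0.2 from limma). With any 1 of the 6 arrays left out the log2 fold change was -0.29 to -0.26 and the adjusted p from limma 0.0503 to 0.136, so that the call rests on having all 6 arrays.

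The other 6 genes of this pathway were not called. CD74, the invariant chain that fills the groove until the endosome is reached, had 10.51, 10.29 and 10.39 with IL-17A and 10.35, 10.34 and 10.29 in the controls. The values overlapped, at a log2 fold change of 0.07 (95% interval -0.09 to 0.23). HLA-DMA and HLA-DMB, the chains of the peptide exchanger HLA-DM, had log2 fold changes of -0.11 and 0.10. HLA-DOA and HLA-DOB, the chains of its B-cell inhibitor HLA-DO, had log2 fold changes of 0.07 and -0.05. CTSS, or cathepsin S, which cuts the invariant chain, had a log2 fold change of -0.02 with a 95% interval from -0.10 to 0.07.

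At their brightest probes the regulators had small log2 fold changes, each of them below 0, and none was called. CIITA, the class II coactivator, had 9.25, 9.26 and 9.21 with IL-17A and 9.30, 9.37 and 9.44 in the controls. Every IL-17A array was lower than every control array. The log2 fold change was -0.13 (standard error 0.05, 95% interval -0.25 to -0.01, adjusted p = 0.137 from limma). RFXANK, a subunit of the RFX complex, had 10.95, 10.85 and 10.90 with IL-17A and 11.06, 11.05 and 10.97 in the controls, again without overlap, at a log2 fold change of -0.13 (limma, adjusted p = 0.126, standard error 0.05). RFX5, the DNA-binding subunit, had 10.70, 10.77 and 10.73 with IL-17A and 10.82, 10.85 and 10.79 in the controls. These did not overlap, at a log2 fold change of -0.08 (limma, adjusted p = 0.198, standard error 0.04, 95% interval -0.18 to 0.01). RFXAP, the remaining subunit, also did not overlap, with a log2 fold change of -0.06. NLRC5, the class I coactivator, had 8.18, 8.20 and 8.18 with IL-17A and 8.35, 8.30 and 8.19 in the controls, at a log2 fold change of -0.09. The groups thus did not overlap for 4 of the 5 regulators at their brightest probes, against 40.7% of all named genes. The dimmer probes of CIITA, RFX5 and NLRC5 overlapped between the groups and were not called. Their log2 fold changes were -0.15, -0.008 and 0.07. At the brightest probes the 5 log2 fold changes were between -0.12 and -0.06 within the scan that held both groups. Without normalization between arrays they were between -0.10 and -0.01.

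**Figure D2:**
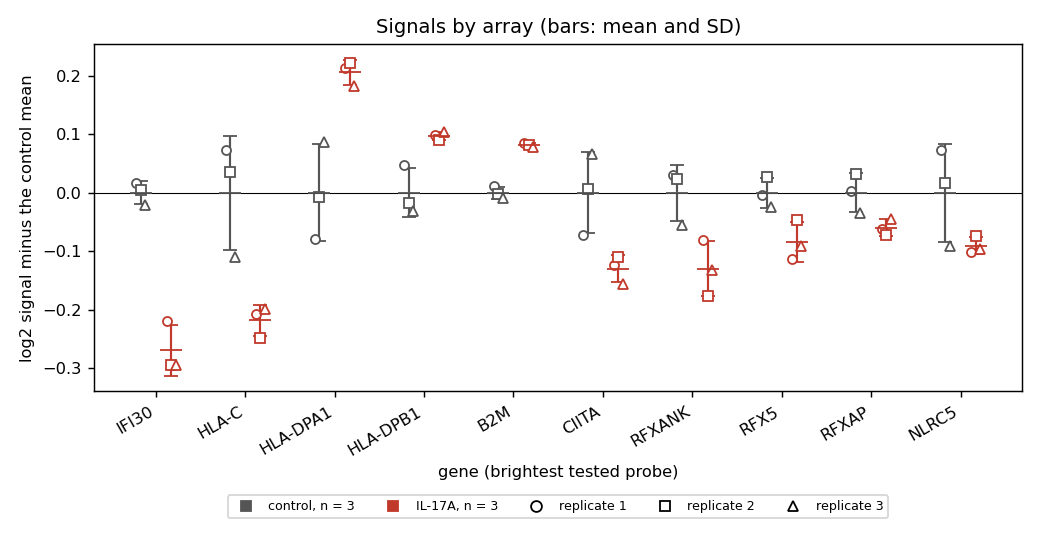
Log2 signal of each array minus the mean of the controls for the 7 genes with an unadjusted p under 0.05 and for the other 3 regulators, at the brightest tested probe. Symbols mark the replicate number, bars the mean and SD of 3 arrays, and the groups overlap for NLRC5 alone.

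Of the CD1 family, which presents lipids to T cells, CD1D was the only gene detected, on 2 of the 3 IL-17A arrays and on 2 of the 3 controls. It had log2 signals of 1.19, 2.87 and 2.93 with IL-17A and of 2.93, 2.11 and 2.86 in the controls. IL-17A replicate 1 was the lowest of the 6 arrays, and the groups overlapped. The log2 fold change of -0.31 had a standard error of 0.53 and a 95% interval from -1.62 to 1.01, so that no difference of this size was detectable. Since IL-17A replicate 1 was the array in the scan of the controls, the value within that scan was -1.45, and without that array the log2 fold change was 0.26. CD1A, CD1B and CD1C had log2 signals between 0 and 2.15 on the 6 arrays, not well above background on any of them.

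Because HLA genes are measured by several probes, the probes of each gene were set side by side. Of 15 genes with more than 1 tested probe, the probes of 10 genes had log2 fold changes of the same sign and those of 5 genes did not, namely NLRC5, HLA-DPA1, HLA-DPB1, HLA-DQA1 and HLA-DQB1. None of these probes was called. The dimmer probe of HLA-DPA1 had a log2 fold change of -0.06 (95% interval -0.28 to 0.15), against 0.21 at the brightest, so that the higher signal of HLA-DPA1 was seen at 1 of its 2 probes. The 4 probes of HLA-DPB1 had log2 fold changes of 0.10, 0.12, -0.002 and 0.22, the last at an adjusted p of 0.0595 from limma. The probes of TAPBP (-0.11, -0.18 and -0.22), HLA-DMA (-0.11 and -0.13) and CIITA (-0.13 and -0.15) were lower at each probe, and those of HLA-F (0.07 and 0.21) higher. For TAP2, a second probe, which was assigned to a different transcript, was not detected on any array.

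**Figure D3:**
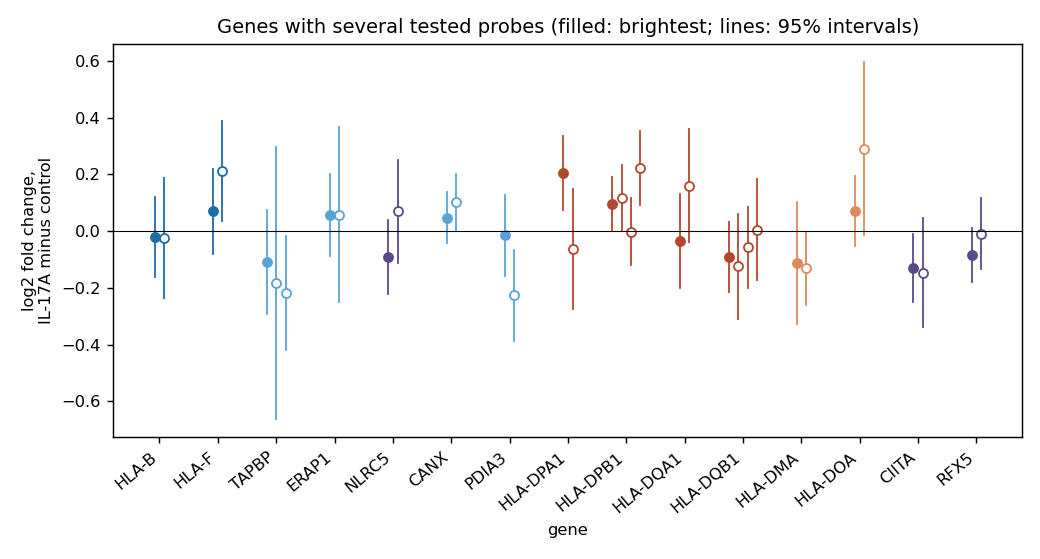
Log2 fold change (IL-17A minus control, 3 arrays each) of each tested probe for the 15 genes with several probes, with lines for the 95% interval from limma. Filled points are the brightest probe of a gene, and HLA-DPA1 and NLRC5 are examples in which the probes lie on different sides of 0.

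The shared scan was examined for all 37 genes, with IL-17A replicate 1 alone set against the 3 controls. The log2 fold changes within the scan were -0.21 for HLA-C and 0.21 for HLA-DPA1, against -0.22 and 0.21 over all arrays, and those of HLA-DPB1 (0.10) and B2M (0.08) were also near their values over all arrays. IFI30 went from -0.27 to -0.22 and RFXANK from -0.13 to -0.08, both closer to 0. The values within the scan share the controls and IL-17A replicate 1 with those over all arrays. CD74 was at 0.18, against 0.07, and IL-17A replicate 1 was its highest array. No gene was called within the scan, where 1 IL-17A array is assumed to vary like the controls, and 0.115% of all named genes were.

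**Figure D4:**
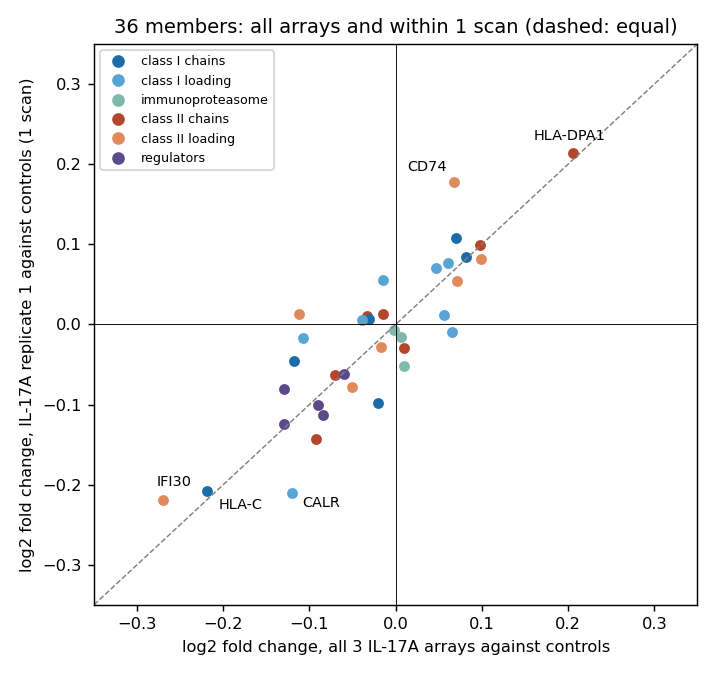
Log2 fold change of 36 genes over all arrays (horizontal axis) and within the scan that held IL-17A replicate 1 and the 3 controls (vertical axis), coloured by role, with a dashed line where both are equal. CD1D, at -0.31 and -1.45, lies outside the axes, and the points share the 3 controls and IL-17A replicate 1.

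Further genes of antigen presentation and its control were taken from a list of 37, of which 35 had a tested probe. Of the 35 genes 2 were called, both higher with IL-17A, against a background of 7.85%, and 15 had an unadjusted p under 0.05 from limma, 7 higher and 8 lower, against 31.8%. PRDM1, or Blimp-1, the plasma-cell factor known to repress CIITA, had 6.04, 6.03 and 6.00 with IL-17A and 5.58, 5.60 and 5.75 in the controls. The groups did not overlap, and PRDM1 rose by a log2 fold change of 0.38 (limma, adjusted p = 0.0327, standard error 0.06). Its dimmer probe had a log2 fold change of 0.43 (adjusted p = 0.188). MR1, a class I-like molecule that presents vitamin B metabolites, had 7.23, 7.16 and 7.13 with IL-17A and 6.92, 6.93 and 6.89 in the controls. MR1 rose at both of its probes, by log2 fold changes of 0.26 (limma, adjusted p = 0.0347, standard error 0.04) and 0.24 (adjusted p = 0.0346).

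Within the scan that held both groups, the log2 fold changes were 0.40 for PRDM1 and 0.32 for MR1, at adjusted p-values of 0.195 and 0.174 from limma. The adjusted p of PRDM1 ranged from 0.0477 to 0.136 with 1 array left out and that of MR1 from 0.0581 to 0.137. MICA and MICB, stress ligands related to class I that NK cells recognize, were higher on every IL-17A array at their brightest probes. MICB had 10.31, 10.29 and 10.27 with IL-17A and 9.94, 10.03 and 10.13 in the controls (adjusted p = 0.054 from limma, log2 fold change 0.26). MICA had a log2 fold change of 0.15 (adjusted p = 0.0921) at its brightest probe and of 0.41 (adjusted p = 0.0446) at its dimmer one. The dimmer probe of MICB overlapped between the groups (log2 fold change 0.14, adjusted p = 0.41 from limma). The 8 genes of the further list lower at an unadjusted p under 0.05 had log2 fold changes from -0.42 for CTSL, a lysosomal protease, to -0.10 for PSMB6, and none was called. IRF1, an interferon-induced activator of class I genes, overlapped between the groups, with a log2 fold change of 0.05.

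**Figure D5:**
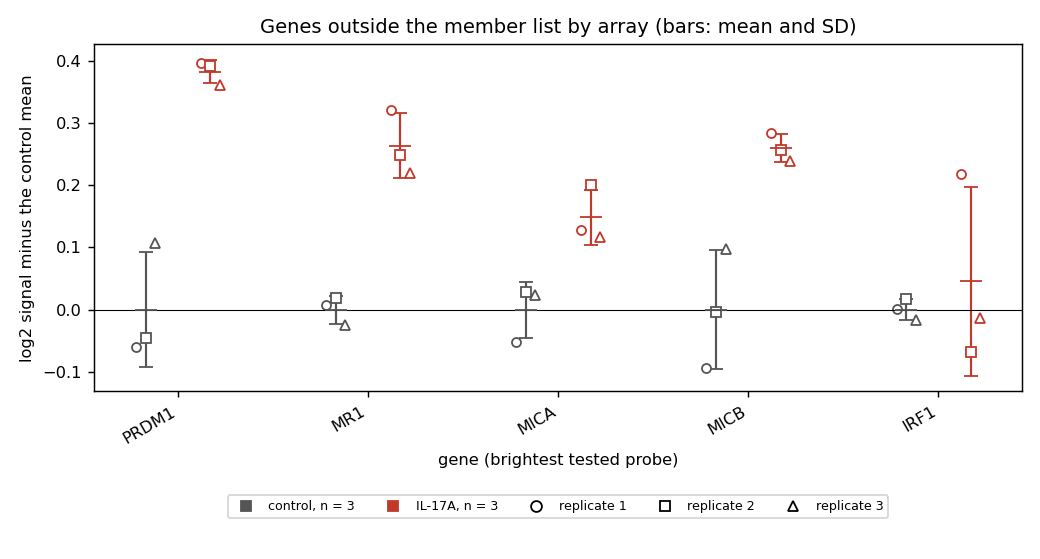
Log2 signal of each array minus the mean of the controls for 5 genes outside the list of 40, at the brightest tested probe. Symbols mark the replicate number, bars the mean and SD of 3 arrays, and IRF1 alone overlaps between the groups.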

How the data were processed

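Each deposited array file holds linear intensity values of the spots, from which Agilent Feature Extraction 11.0.1.1 had subtracted the background, and the authors applied no normalization between arrays there. A further deposited table holds the authors' own quantile-normalized log2 values and served as an alternative. Flags of 0 or 1 mark detection and quality. Control spots and non-uniform spots (4 to 25 per array) were left out, intensities below 1 were set to 1, log2 values of the 43118 spots were averaged by probe, and quantile normalization was applied across arrays. Detection required the flags for a positive and significant signal and for one well above background. Probes detected on at least 3 arrays were tested in a two-sided limma model (limma 3.58.1 in R 4.3.3) that had no covariates, and the procedure was tested on simulated data. There, 66 or 67 of the 23945 probes were changed at each size of change. With limma, 20.9% of the log2 changes of 0.25 were called, 67.2% of those of 0.5 and 97% of those of 1. Small changes were thus often not called there. The array is annotated on an earlier assembly, so gene coordinates were used only for promoter sequences. All 40 genes are named, with full values for called genes and for CIITA, RFX5, NLRC5, CD74, B2M and HLA-DRA. Of the further 37 genes, those called and MICA, MICB and IRF1 are named, PSMB5, PSMB6, PSMB7 and CTSL were added after their values were seen, and 1 gene of the rule is not reported here. Genes and lists were chosen with earlier results of these data known. The scan of each array was read from the scan identifier in its file header. The alternatives changed normalization, background correction, filters, test, blocks, probe choice or 1 array.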

Additional observations from a re-analysis of the deposited data

How the results depend on the processing

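Of the 40 genes, 1 was called at an adjusted p under 0.05 (limma), against 7.85% of all named genes. The count was 2 after 75th percentile scaling (5.89% of all named genes), 2 with normexp (offset 50, 9.90%), 3 with a variance trend (17.7%) and 2 by the methods' t-test (5.94%), with HLA-C joining IFI30 in the first 3, HLA-DPA1 with the trend and B2M in the t-test. It was 0 without normalization between arrays, with a replicate block, with scan as a block and within the scan, where few genes of any kind were called (0.19%, 0.0203%, 0.21% and 0.115%). In these fits 2, 3, 5 and 3 of the genes had an unadjusted p under 0.05, against 18.9%, 26.2%, 22.3% and 18.9% of all named genes. With 1 array left out it was 0 to 1 (0.00678% to 4.12% of all named genes), the 1 being HLA-C without control replicate 3, and 3 to 8 genes had an unadjusted p under 0.05. For the further genes, against the same shares, the count of 2 became 4 with normexp, 8 with the trend, 3 with detection on all 6 arrays (11.2%), and 0 in the same 4 fits, where 5, 13, 10 and 10 had an unadjusted p under 0.05. With 1 array left out it was 0 to 2, the 2 without control replicate 3. The count past 1.5-fold was 0, and 1 (CD1D) with scan as a block or within the scan. No pairing by replicate number was visible, since deviations of same-numbered samples correlated at -0.0871, -0.0022 and -0.0466 across probes. Such correlations cannot show whether the samples were prepared in pairs. The cause of the changes in the counts was not tested.

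Most reversed log2 fold changes were close to 0. With scan as a block, and equally within the scan, they were 0.0064 (HLA-G), 0.0059 (TAP1), -0.0089 (TAP2), -0.0163 (PSMB9), -0.0525 (PSMB10), 0.0557 (PDIA3), -0.0299 (HLA-DRA), 0.0128 (HLA-DRB1), 0.0102 (HLA-DQA1) and 0.0133 (HLA-DMA). After 75th percentile scaling they were 0.0142 (PSMB8), 0.0012 (PDIA3) and -0.081 (HLA-DRA). Without normalization they were 0.0399 (PSMB8), 0.0269 (PDIA3), -0.0552 (HLA-DRA), 0.0036 (HLA-DRB1), 0.0078 (HLA-DQA1) and 0.0147 (CTSS). With normexp they were 0.0225 (PSMB8), 0.0023 (PDIA3) and -0.0146 (HLA-DRA). At the dimmest probe they were 0.0705 (NLRC5), -0.0636 (HLA-DPA1), 0.1606 (HLA-DQA1) and 0.005 (HLA-DQB1), over the mean of probes 0.0638 (HLA-DQA1), and in the authors' normalized values a CD1D difference of 1e-04. With 1 array left out the ranges were -0.6076 to 0.264 (CD1D), -0.0686 to 0.0184 (HLA-B), -0.0926 to 0.0172 (HLA-DQA1), -0.0089 to 0.0295 (HLA-DRA), -0.0285 to 0.0109 (HLA-DRB1), -0.0408 to 0.1024 (IRF1), -0.0503 to 0.0353 (PDIA3), -0.024 to 0.0415 (PSMB10), -0.0097 to 0.0046 (PSMB8) and -0.0206 to 0.022 (PSMB9). Of 839 values of single genes, 740 kept direction and side of the threshold, 56 reversed, 31 lost a call and 12 gained one. Most of these genes were not called to begin with and had no call to lose. The 31 lost calls were all of IFI30, PRDM1 or MR1, the only called genes among them.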
